A study of Mus musculus with 12 samples.

Results

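The genes of the cytosolic ribosome were followed in dorsal root ganglia (DRG), the clusters of sensory neurons and glia beside the spinal cord. Members were chosen by symbol: Rpl or Rps followed by a number and an optional letter suffix, or Rplp0, Rplp1, Rplp2, Rpsa or Fau, with numbered pseudogenes (-ps) and the ribosomal S6 kinases left out. This gave 91 members among 49315 genes in the count table, of which 85 are annotated as protein coding and 6 as pseudogenes without a -ps name. The 78 protein-coding members that are not a paralogue or tissue-restricted copy are called core members here. They comprise 46 genes of the large 60S subunit and 32 of the small 40S subunit. Rack1, a protein bound to the 40S head, does not match the naming rule and was read with the translation factors.

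Tissue came from 12 mice aged 10 months, with about 8 ganglia per mouse pooled into 1 library. All mice carried Postn-Cre(+) and Nf2 flox/flox, so the 6 controls (Nf2 mice) had themselves lost a tumor suppressor in the Periostin-Cre lineage of Schwann cells and their precursors. The other 6 mice also carried Fak1 flox/flox (DKO mice), where Fak is the gene annotated as Ptk2, and each genotype had 3 mice labelled male and 3 labelled female. Neurons and other cells outside the Cre lineage keep both genes, and in bulk tissue fewer cells of a type and less RNA per cell cannot be told apart. No mouse without Cre was analysed here.

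The total count per mouse was 21129191 to 41250329. Mouse 702, labelled male in the Nf2 group, had 496 CPM (the count of a gene scaled to its library's total) of Xist and 0.525 CPM of the Y-linked gene Ddx3y, values inside the range of the mice labelled female and far from the other labelled males, so results by sex are also given without it. Markers of the labelled tissue were present in all libraries, with summed levels of 13112 to 16570 CPM for 17 sensory neuron genes in Nf2 mice and 14199.7 to 15783 CPM in DKO mice. Ptk2 itself had 65.8 to 75.5 CPM in Nf2 mice and 46.5 to 76.0 CPM in DKO mice, so the bulk level of the deleted gene overlapped between genotypes.

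A cytosolic ribosome joins a 40S subunit, which reads the mRNA, to a 60S subunit, which forms peptide bonds and releases the growing chain through an exit tunnel. Nearly all of its proteins are present once per ribosome and are encoded by single active genes, whose mRNAs begin with a pyrimidine-rich 5′ terminal tract (TOP) through which mTOR controls their translation. These short, abundant mRNAs have been copied into the genome many times as processed pseudogenes, and several of those copies are almost letter for letter the same as the parent gene. A search of the member coding sequences against GENCODE M21 transcripts found 842 pseudogene rows in the table with at least 90% identity over at least 50% of a member's coding sequence, assigned to 81 members, and 678 of these rows had a read. Rpl21 had the most, with 68.

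How alike such a copy can be matters for Rpl3, the only member past the threshold between genotypes. Rpl3 (ENSMUSG00000060036, GRCm38 chr15:80077791-80091868, minus strand) encodes a 60S protein that reaches toward the peptidyl transferase centre. Its copy Rpl3-ps1 lies on the X chromosome (chrX:13202571-13203780) and differs from the Rpl3 coding sequence at 2 of 1209 aligned bases. Of the 1113 windows of 100 bases in the Rpl3 coding sequence, 953 (85.6%) were found unchanged in the copy. The differing bases are shown in capitals in 2 stretches of 60 bases, 5′ to 3′, the first covering bases 27 to 86 of the Rpl3 coding sequence (copy at chrX:13202598-13202657, plus strand).
Rpl3: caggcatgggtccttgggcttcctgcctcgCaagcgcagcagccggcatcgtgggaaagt
Rpl3-ps1: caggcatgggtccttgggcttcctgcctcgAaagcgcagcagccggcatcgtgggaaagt
The second stretch covers bases 756 to 815 (copy at chrX:13203327-13203386).
Rpl3: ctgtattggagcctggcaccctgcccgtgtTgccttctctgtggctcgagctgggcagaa
Rpl3-ps1: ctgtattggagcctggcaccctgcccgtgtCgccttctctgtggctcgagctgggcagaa
Rpl30, a 60S protein gene on the same chromosome (chr15:34440505-34443640, minus strand), differs from its copy Gm12191 at 1 of 348 bases, shown within bases 66 to 125 of the coding sequence (copy at chr11:49678933-49678992, minus strand).
Rpl30: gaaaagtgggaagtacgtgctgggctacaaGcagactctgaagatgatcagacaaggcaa
Gm12191: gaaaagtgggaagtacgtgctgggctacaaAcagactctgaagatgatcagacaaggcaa
Rpl34, another 60S protein gene (chr3:130726831-130730398, minus strand), differs from Rpl34-ps1 at 2 of 354 bases, of which the first is shown within bases 102 to 161 (copy at chr6:71124711-71124770, plus strand).
Rpl34: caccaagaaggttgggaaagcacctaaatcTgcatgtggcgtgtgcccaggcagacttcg
Rpl34-ps1: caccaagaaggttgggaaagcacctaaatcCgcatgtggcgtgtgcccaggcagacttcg

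Ribosomal protein genes took a similar share of all counts in both genotypes. The 91 members together took 1.79% (mouse 649), 1.35% (702), 1.34% (884), 1.51% (918), 1.59% (1048) and 1.47% (1049) of the counts in Nf2 mice. In DKO mice they took 1.35% (885), 1.62% (886), 1.59% (887), 1.58% (914), 1.31% (915) and 1.27% (917). The genotypes overlapped throughout, with means of 1.51% ± 0.167 in Nf2 and 1.45% ± 0.159 in DKO mice (SD, n = 6), and without mouse 649 the difference of the means was 0.00239 percentage points with the DKO mean higher. Within each genotype the mice differed from each other by more than the genotypes did.

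Core members moved largely as a block from mouse to mouse. In mouse 649, 74 of the 78 core members lay above their own mean over the 12 mice on the log2(CPM + 1) scale, and their median deviation was 0.33. In mouse 1048, 70 lay above it, and in mice 886, 887 and 914 of the DKO group 67, 65 and 66 did. The opposite held in mice 885 and 917, where 2 core members each lay above their mean, and in mice 702, 884 and 915, where 4, 5 and 4 did. High and low mice thus occurred in both genotypes. The share of mitochondrially encoded genes was highest in mouse 887 (5.60%) and mouse 649 (4.45%), which both had high ribosomal protein levels, and was 1.99% to 3.15% in the other mice. Its part in the block movement was not tested.

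**Figure D1:**
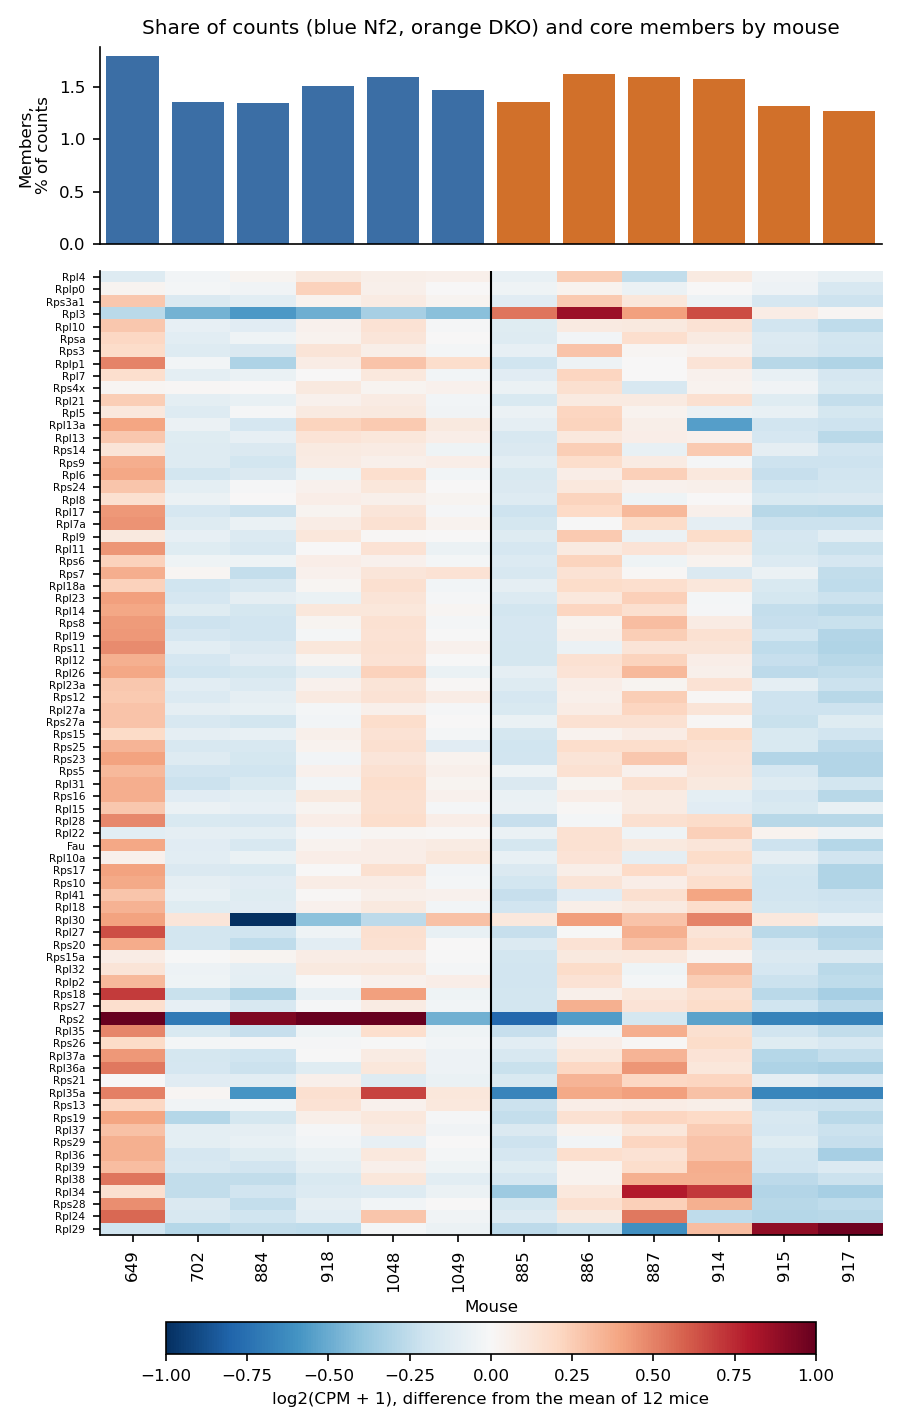
The upper bars give the percentage of all counts in the 91 members for each mouse, and the lower grid gives each core member (rows, ordered by mean CPM) in each mouse as the difference of log2(CPM + 1) from its mean over 12 mice. Whole columns are red (mouse 649) or blue (mice 885 and 917), while Rpl3, Rps2, Rpl30, Rpl34, Rpl35a and Rpl29 depart from the column they stand in.

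Levels between genes were compared per kilobase of the representative transcript. Over the 78 core members the median was 233 CPM per kilobase and the range ran from 34.6 (Rps20, whose representative transcript of 3706 bases lowers its value) to 673 (Rplp1). The highest was Rplp1, a protein of the P stalk that recruits the GTPases of elongation, with 673 CPM per kilobase. Rps14, a 40S protein, followed with 447, and Rpl10, an X-linked 60S protein that closes the assembly of the catalytic centre, with 444. At the other end of the tested members stood Rps3a3 with 0.466, Rpl3l with 0.92 and Rps3a2 with 2.19. Core members with 20 or more matching pseudogene rows (10 genes) had a median level of 287 CPM per kilobase and those with at most 4 (23 genes) had 272, and the ranges overlapped.

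Across mice, the typical core member was steady. The coefficient of variation of CPM over the 12 mice had a median of 13.4% and was below 20% for 67 of 78 core members. Rps4x (6.36%), the paralogue Rpl7l1 (6.42%) and the stalk protein gene Rplp0 (6.61%) varied least among all members. Rpl39l (291%), Rps4l (108%) and Rpl3l (103%), all paralogues or copies with low counts, varied most. Among core members the highest values belonged to Rps2 (65.7%), Rpl29 (40.7%) and Rpl3 (36.6%).

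Promoters of core members held 2 short sequence features more often than promoters in general. RefSeq promoters (GRCm38.p6, 250 bases before to 50 after the start) were matched for 58 of the 78 core members. The letters CCGGAAG, a form of the ETS factor motif, occurred on either strand in the promoters of 24 of these 58 genes (41.4%), against 9.93% of 27025 genes. Read in the direction of transcription within 25 bases of the start, the pyrimidine string CTTTC occurred for 19 of 58 genes (32.8%), against 7.87% of all. Over the whole promoter the longer string CTTTCC was less distinct, with 29 of 58 genes (50%) against 29.3% of all. The string TATAAA was rarer in core members, with 6 of 58 genes (10.3%) against 15.7% of all. A match is a string of letters and not a measured binding site. Stretches of 60 promoter bases with the motif in capitals are shown for the 4 members of highest level per kilobase that hold it upstream of the start, to show where the match lies: Rps3a1 (chr3:86142669-86142728, minus strand), Rpl41 (chr10:128549191-128549250, minus strand), Rps25 (chr9:44407615-44407674, plus strand) and Rps10 (chr17:27635245-27635304, minus strand).
Rps3a1: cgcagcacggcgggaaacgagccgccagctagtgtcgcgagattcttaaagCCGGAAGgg
Rpl41: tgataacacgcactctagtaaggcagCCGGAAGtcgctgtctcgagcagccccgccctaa
Rps25: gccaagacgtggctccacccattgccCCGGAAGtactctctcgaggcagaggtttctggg
Rps10: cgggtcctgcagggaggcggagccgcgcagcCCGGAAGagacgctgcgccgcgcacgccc

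The genotype comparison asked which ribosomal protein genes differed in DKO against Nf2 ganglia. Of the 91 members, 87 had enough counts to be tested together with 18208 other genes. At an adjusted p of 0.05 in edgeR's quasi-likelihood test, 1 of the 87 members (Rpl3) passed, beside 0.94% of all 18295 tested genes (172 genes), and beside 0.372% for genes higher in DKO mice as Rpl3 was. A single call among 87 genes is near the background share. At an unadjusted p under 0.05 in edgeR there were 5 members (Rpl3, Rps2, Rpl3l, Rps27l and Rps4l), against 14.9% of all tested genes. Rpl3 was also the only tested member whose CPM did not overlap between genotypes, a pattern that 1.95% of all tested genes showed. The median log2 fold change was -0.08 over the 87 members and 0.00 over all tested genes, and 73 of the 87 members had a value below 0. That balance rested largely on mouse 649, since without it the median of the members was -0.01 and 55.2% lay below 0.

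**Figure D2:**
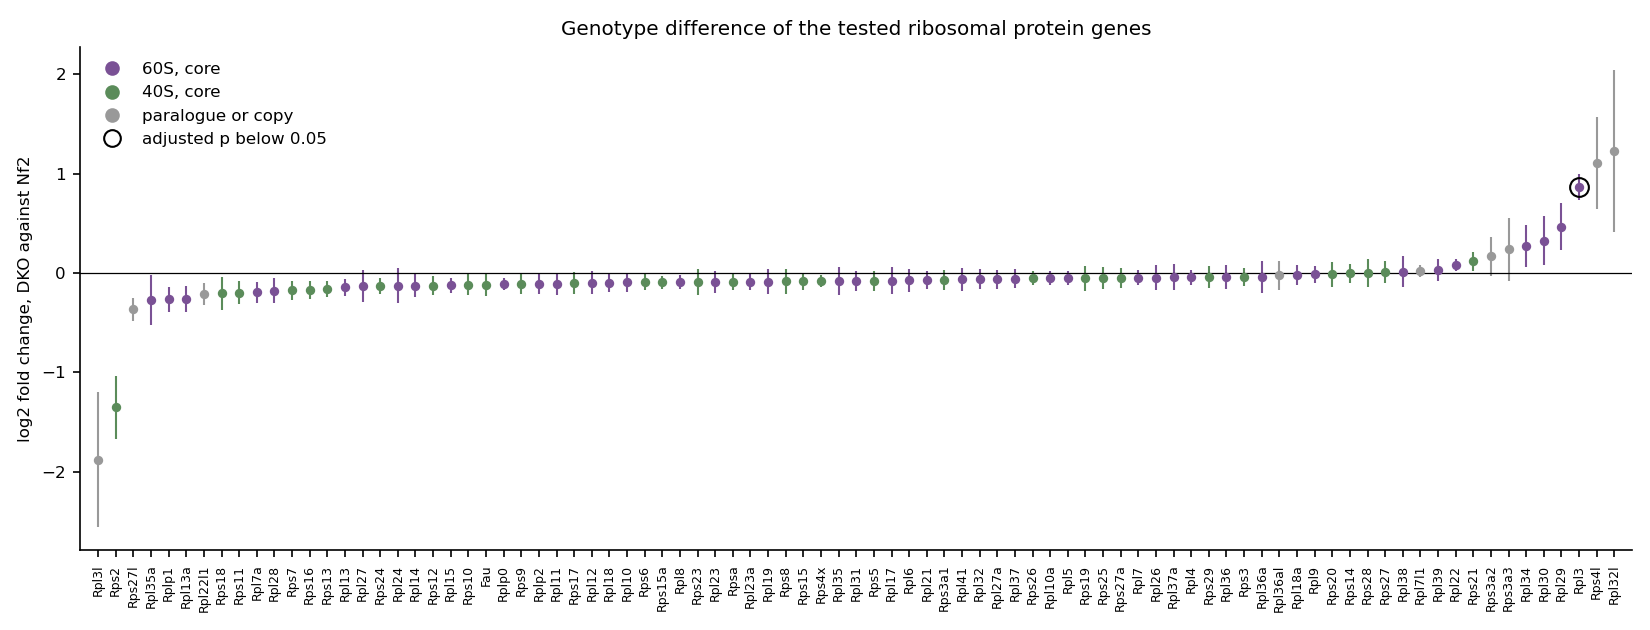
Log2 fold change of DKO against Nf2 mice with its standard error for each of the 87 tested members, ordered by size, with 6 mice per genotype. Most points lie just below 0, Rpl3 (circled) at 0.86 is the only one past the threshold, and the widest error bars belong to paralogues and copies.

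Rpl3 was higher in every DKO mouse than in any Nf2 mouse. It had 284, 246, 229.9, 243, 272 and 256 CPM in Nf2 mice 649, 702, 884, 918, 1048 and 1049. In DKO mice it had 495 (885), 618 (886), 454 (887), 537 (914), 360.3 (915) and 347 CPM (917). The Nf2 mice stood close together, whereas DKO mice 915 and 917 lay well below the other 4. The log2 fold change was 0.86 (SE 0.13, edgeR adjusted p = 0.00838), and Rpl3 passed in each of the 12 fits that left out 1 mouse, with log2 fold changes of 0.77 to 0.93. Among males alone (3 against 3 by label) it was 0.67 and did not pass (edgeR adjusted p = 0.362), nor did it without mouse 702 (0.64, adjusted p = 0.553). Within the pool of core member counts, Rpl3 took 1.72% ± 0.0884 in Nf2 and 3.25% ± 0.491 in DKO mice (SD, n = 6).

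The near-identical copy ran the other way. Rpl3-ps1 had 49.6, 79.7, 73.3, 78.3, 63.8 and 75.0 CPM in the Nf2 mice in the same order. In DKO mice 885, 886, 887 and 914 it had 5.08, 6.69, 4.69 and 4.75 CPM, and in mice 915 and 917 it had 39.1 CPM each. The 4 DKO mice with the highest Rpl3 thus had the lowest Rpl3-ps1, the DKO mice 915 and 917 lay between, and the genotypes did not overlap for the copy either. Its log2 fold change was -2.11 (SE 0.55), which did not pass (edgeR adjusted p = 0.0908). Rpl3-ps2, the other pseudogene named after Rpl3, had 61 reads over all 12 mice.

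Adding the reads of every matching pseudogene row to Rpl3 left a smaller difference. The sum was 326 ± 12.0 CPM in Nf2 and 486 ± 90.4 CPM in DKO mice (SD, n = 6), with a log2 fold change of 0.56 (SE 0.11, edgeR adjusted p = 0.0256). All 6 DKO mice still lay above all 6 Nf2 mice. The part that reads shared between the gene and its copy have in either value was not tested, since the treatment of reads with several matches is not given in the sources used here.

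**Figure D3:**
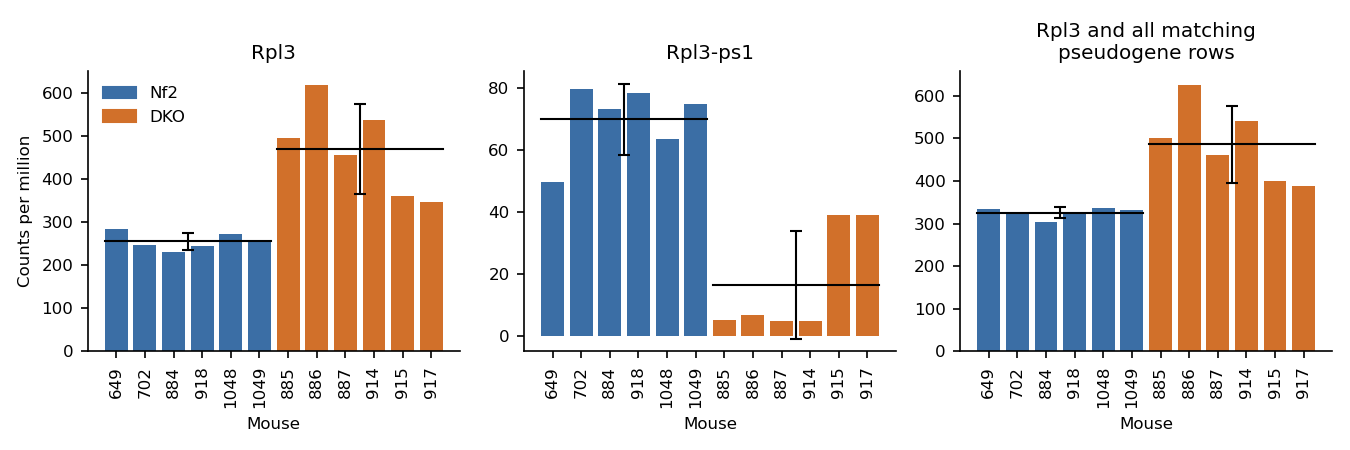
CPM of Rpl3, of its X-linked pseudogene Rpl3-ps1, and of Rpl3 plus all matching pseudogene rows in each mouse, with the mean of each genotype as a horizontal line and its SD as an error bar (n = 6). Rpl3 is higher and Rpl3-ps1 lower in every DKO mouse, and the sum has means of 326 CPM in Nf2 and 486 CPM in DKO mice.

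Genes beside Rpl3 did not pass the test. Rpl3 lies 6.65 Mb from Ptk2 on chromosome 15. The 3 nearest tested genes before it, Apobec3, Cbx7 and Pdgfb, had log2 fold changes of -0.27, 0.16 and -0.35. Behind it Syngr1, Tab1 and Mgat3 had 0.29, -0.10 and 0.07, and the lowest edgeR adjusted p of the 6 was 0.145 (Pdgfb). Syngr1, a synaptic vesicle protein gene, overlaps the 5′ side of Rpl3 in the annotation on the opposite strand, and it had 264 ± 51.4 CPM in Nf2 and 328 ± 41.6 CPM in DKO mice (SD, n = 6). Whether the counting used strand is not given in the sources used here, so reads in the overlap cannot be assigned.

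Rps2, a 40S protein at the mRNA entry site, had the lowest log2 fold change of any core member. It had 234, 55.7, 176, 198, 211 and 65.3 CPM in Nf2 mice 649, 702, 884, 918, 1048 and 1049. In DKO mice the range was 52.7 to 81.1 CPM, with a median of 59.6. The Nf2 mice fell into 4 high values and 2 values (mice 702 and 1049) inside the DKO range, so the genotypes overlapped. The log2 fold change was -1.35 (SE 0.32) and did not pass with all mice (edgeR adjusted p = 0.0657). It passed without mouse 702 (-1.53, adjusted p = 0.0232) or without mouse 1049 (-1.51, adjusted p = 0.0339), the 2 Nf2 mice with the low values.

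Rps2 also has a near-identical copy that moved in the opposite direction from mouse to mouse. Rps2-ps10 differs from the Rps2 coding sequence at 5 of 882 bases. It had 77.1, 76.5, 82.6 and 81.9 CPM in the 4 Nf2 mice with high Rps2 (649, 884, 918 and 1048) and 143 and 151 CPM in mice 702 and 1049. In DKO mice it had 123 to 143 CPM. The sum of Rps2 and its matching rows was 261 ± 44.8 CPM in Nf2 and 199.5 ± 7.59 CPM in DKO mice (SD, n = 6), and its coefficient of variation over all mice was 19.2% against 65.7% for Rps2 alone. On the summed counts the log2 fold change was -0.41 (SE 0.10, edgeR adjusted p = 0.0788).

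The balance of the subunits is not a result separate from Rpl3 (60S) and Rps2 (40S). These genes were picked for their differences in these same data, which run in opposite directions. The summed counts of 60S core members over those of 40S core members were 1.46 to 1.51 in Nf2 and 1.54 to 1.57 in DKO mice, with no overlap. Without Rpl3 and Rps2 the ratio had means of 1.479 ± 0.0136 in Nf2 and 1.483 ± 0.0147 in DKO mice (SD, n = 6) and the ranges overlapped. With matching pseudogene rows added to every gene, Rpl3 and Rps2 included, it was 1.464 to 1.505 and 1.514 to 1.540, again with no overlap.

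A further 3 core members showed the same opposition to a copy in some mice, described here after their values were seen. Rpl30 had 44.7, 94.7 and 105 CPM in Nf2 mice 884, 918 and 1048, where Gm12191 had 29.8, 16.1 and 18.6 CPM. In the other 9 mice Rpl30 had 119 to 178 CPM and Gm12191 at most 2.37 CPM. The sum of Rpl30 and its matching rows was 75.4, 111 and 125 CPM in mice 884, 918 and 1048 and 121 to 181 CPM in the other 9. The coefficient of variation was 28.4% for Rpl30 alone and 21.2% for the sum. The log2 fold change of Rpl30 was 0.33 (SE 0.24, edgeR adjusted p = 0.586).

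Rpl34 stood out in DKO mice 887 and 914, with 108 and 102 CPM. In these mice Rpl34-ps1 had 18.9 and 15.3 CPM. The other 10 mice had 48.0 to 69.5 CPM of Rpl34 and 25.1 to 38.5 CPM of the copy. The coefficient of variation was 31.3% for Rpl34 alone and 17.5% for the sum with its matching rows.

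Rpl29, a small 60S protein, was set apart in the 3 DKO males. They had 42.9 (914), 64.5 (915) and 68.2 CPM (917), whereas the 3 DKO females had 22.1 to 29.3 CPM and all 6 Nf2 mice 28.1 to 33.8 CPM. The copies Gm8210 (chromosome 1) and Gm13841 (chromosome 5) each differ from Rpl29 at 3 of 483 bases. Gm8210 had 4.53, 5.74 and 4.88 CPM in those males and 9.94 to 11.6 CPM in the other mice. Gm13841 had 1.86 and 1.77 CPM in mice 915 and 917 but 4.05 CPM in mouse 914, inside the 2.66 to 6.56 CPM of the other mice. The sum of Rpl29 and its matching rows was still 76.9 and 79.5 CPM in mice 915 and 917, against 42.0 to 56.7 CPM in the other mice, 914 included. The coefficient of variation was 40.7% for Rpl29 alone and 21.4% for the sum. The genotype difference of Rpl29 did not pass (log2 fold change 0.47, SE 0.24, edgeR adjusted p = 0.379).

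**Figure D4:**
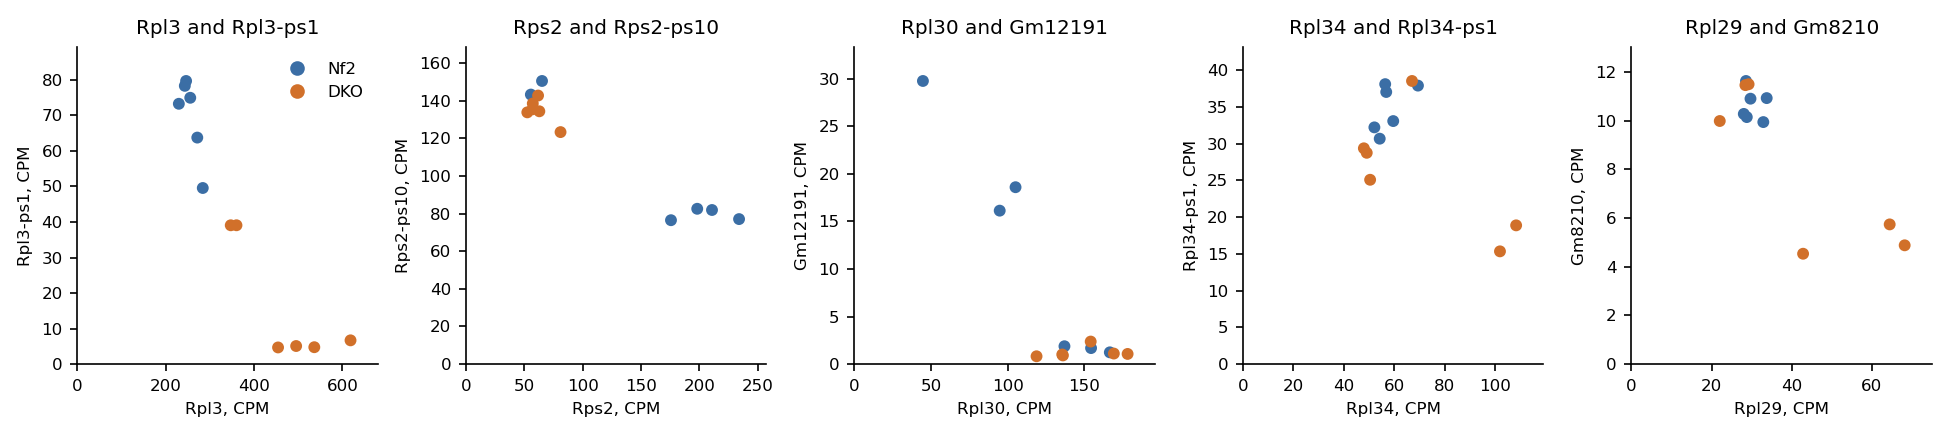
CPM of a member (horizontal axis) against CPM of its near-identical pseudogene (vertical axis) for 5 pairs, 1 point per mouse, blue for Nf2 and orange for DKO. For Rpl30 the 3 mice with the fewest reads of the member have the most of the copy, in the other panels the 2 to 4 mice with the most reads of the member have the fewest of the copy, and only for Rpl3 and Rpl3-ps1 do the genotypes not overlap on either axis.

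Several other near-identical copies had counts in every mouse. Of the 13 pairs whose pseudogene row had at least 1000 reads, 4 copies match the whole coding sequence with no difference: Gm15500 of Rpl5, Rps6-ps4 of Rps6, Gm10736 of Rpl41 and Rpl38-ps2 of Rpl38. Gm15500 had 4.07 ± 0.766 and 4.55 ± 0.720 CPM in Nf2 and DKO mice and Rps6-ps4 had 3.20 ± 0.723 and 3.48 ± 0.695 CPM (SD, n = 6). Rpl5 itself had 281 ± 18.1 and 274.6 ± 26.6 CPM, and Rps6 had 219 ± 16.2 and 208 ± 22.6 CPM. Gm10736 was less steady, with 14.6 to 30.9 CPM over the 12 mice, both extremes in DKO mice (887 and 914), and Rpl38-ps2 had 1.45 CPM in mouse 914 and 3.67 to 6.13 CPM in the others. Gm6472, which differs from Rps7, a 40S protein gene, at 3 of 585 bases, had 10.6 to 14.6 CPM in mice 649, 702, 1049 and 915 and 21.3 to 28.2 CPM in the other 8. Rps7 itself had 202 to 269.6 CPM in the former and 176 to 232 CPM in the latter, so its ranges overlapped. None of the 87 matching pseudogene rows that could be tested passed the threshold, beside 0.94% of all tested genes. An unadjusted p under 0.05 in edgeR was found for 5 of the 87, beside 14.9% of all tested genes.

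All 4 genes of the P stalk had a log2 fold change below 0, as did 69 of the 78 core members, and none of the 4 passed. Rplp1 had 468, 325, 267, 349, 404 and 373 CPM in Nf2 mice 649, 702, 884, 918, 1048 and 1049 and 288, 319, 331, 364, 273 and 269 CPM in DKO mice 885, 886, 887, 914, 915 and 917. These ranges overlapped widely (log2 fold change -0.26, SE 0.12, edgeR adjusted p = 0.343). Rplp0, which anchors the stalk, had 425 ± 30.01 and 398 ± 17.7 CPM in Nf2 and DKO mice. Rplp2 had 118 ± 12.96 and 111 ± 16.2 CPM, and Rpl12 at the base of the stalk had 203 ± 28.1 and 192 ± 28.5 CPM (SD, n = 6).

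Both fusion genes stayed within their spread. Rps27a, which encodes ubiquitin joined to a 40S protein, had 187 ± 24.5 CPM in Nf2 and 183 ± 19.5 CPM in DKO mice, with a log2 fold change of -0.05 (SE 0.10). Fau, which encodes a ubiquitin-like protein joined to a 40S protein, had 147 ± 20.7 and 137 ± 18.5 CPM (SD, n = 6), with a log2 fold change of -0.12 (SE 0.11). Lists named for regions of the ribosome were broad, and some of their proteins lie outside the region named. In the exit tunnel list 7 of 9 genes had values below 0 (median log2 fold change -0.08). So did 4 of 5 genes listed for the catalytic centre and the approach of GTPases. All 10 genes listed for mRNA entry, decoding and the 40S head did too (median -0.09). These shares are near the 83.9% of all tested members below 0. Without mouse 649, 3 of 9, 4 of 5 and 7 of 10 lay below 0. Among these 24 genes Rpl3 alone passed the test.

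Rpl35a, a 60S protein gene with the lowest log2 fold change among 60S core members (-0.27, SE 0.25, edgeR adjusted p = 0.672), was unusually uneven. It had 129, 92.0, 59.96, 102, 146 and 98.3 CPM in Nf2 mice 649, 702, 884, 918, 1048 and 1049. DKO mice 886, 887 and 914 had 119, 121 and 111 CPM, and mice 885, 915 and 917 had 57.1, 57.6 and 57.2 CPM. Low values of 57.1 to 59.96 CPM thus occurred in both genotypes, and unlike the pairs above the coefficient of variation hardly moved when matching rows were added (32.7% and 32.4%).

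Paralogues and copies outside the core set varied unevenly. Rpl7l1, Rpl22l1, Rps27l and Rpl36al had coefficients of variation of 6.42%, 15.9%, 18.6% and 18.6%, like most core members. Rpl32l, Rpl3l and Rps4l, with fewer reads, had 99.4%, 103% and 108%. Of these 13 members, 9 could be tested, none passed, and 5 had a log2 fold change above 0. Rpl3l replaces Rpl3 in the ribosomes of skeletal and heart muscle. It had 0.213, 0.113, 3.42, 3.75, 2.09 and 2.32 CPM in Nf2 mice 649, 702, 884, 918, 1048 and 1049 and 0.237 to 1.25 CPM in DKO mice. The 2 Nf2 mice with the lowest values lay below every DKO mouse, so the genotypes overlapped (log2 fold change -1.88, SE 0.68, edgeR adjusted p = 0.202). Among females alone (3 against 3) Rpl3l passed (-3.14, edgeR adjusted p = 0.0244).

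Skeletal muscle genes were high in the same mice as Rpl3l. The summed level of 15 skeletal muscle genes, among them Ttn and Tnnt3, was 131, 22.3, 1011, 1345, 826 and 1066 CPM in the Nf2 mice in the same order and 29.0 to 444 CPM in DKO mice. All 15 had a log2 fold change below 0 (median -2.18), none passed, and none was without reads. The part of muscle tissue in the level of Rpl3l was not tested.

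Rps27l, a paralogue of Rps27 that p53 is known to induce, had 48.7, 38.0, 33.9, 43.2, 38.1 and 32.7 CPM in Nf2 mice and 29.0, 26.4, 36.8, 32.6, 31.8 and 27.7 CPM in DKO mice. Most DKO mice lay below the Nf2 range, with mouse 887 inside it. The log2 fold change was -0.37 (SE 0.11), and it did not pass (edgeR adjusted p = 0.14). Of 14 genes listed for p53 (Trp53 itself) and its targets in ribosome stress, none passed. The lowest edgeR adjusted p belonged to Aen, a nuclease gene (log2 fold change 0.31, SE 0.08, adjusted p = 0.0765).

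Rps4l, annotated as a pseudogene on chromosome 6, owed its high log2 fold change to a single mouse. It had 55.1 CPM in DKO mouse 885, 8.23 to 12.0 CPM in the other DKO mice and 5.27 to 11.3 CPM in Nf2 mice. With all mice the log2 fold change was 1.11 (SE 0.46, edgeR adjusted p = 0.272), and without mouse 885 it was 0.27 (adjusted p = 0.557). The same mouse held 50 of the 58 reads of Rpl39l, a copy of Rpl39 best known from testis. Rpl39l had too few counts in the other mice to be tested.

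**Figure D5:**
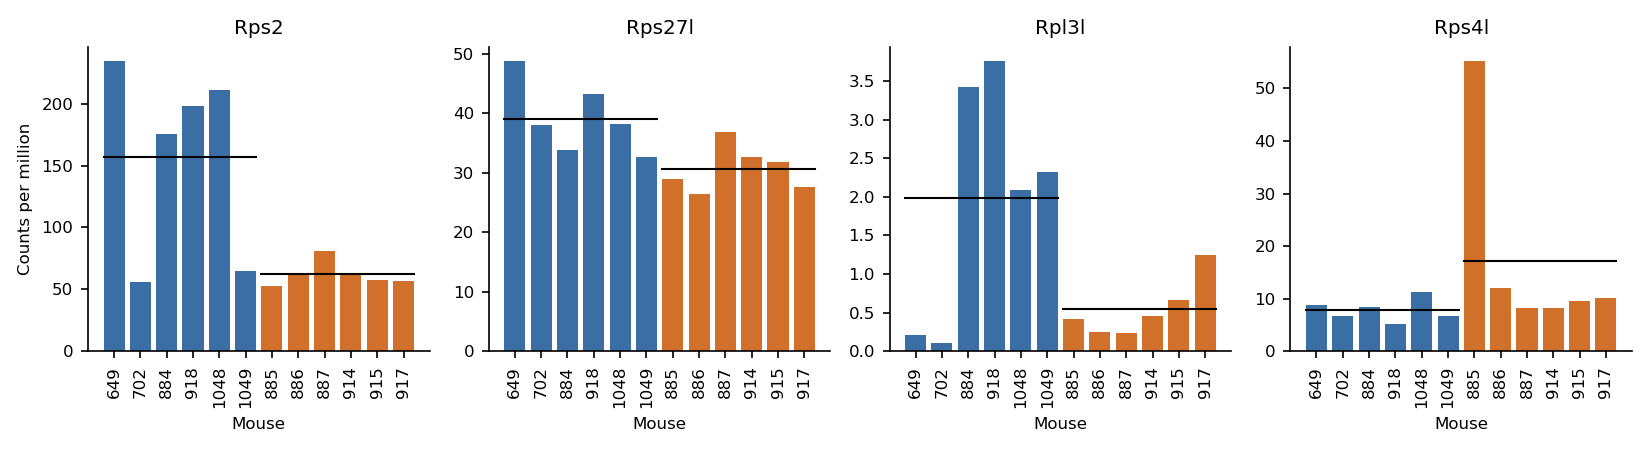
CPM of Rps2, Rps27l, Rpl3l and Rps4l in each mouse, blue for Nf2 and orange for DKO, with the mean of each genotype as a horizontal line. Rps2 has 4 high Nf2 mice, Rpl3l 4 Nf2 mice above 2 CPM, and Rps4l a single DKO mouse at 55.1 CPM.

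Remaining paralogues were close between genotypes or scarce. Rpl22l1, the paralogue of Rpl22, had 46.6 ± 8.19 CPM in Nf2 and 40.7 ± 4.32 CPM in DKO mice, with a log2 fold change of -0.21 (SE 0.11, edgeR adjusted p = 0.412). Rpl7l1 had 55.8 ± 3.73 and 57.4 ± 3.70 CPM, and Rpl36al had 57.2 ± 12.0 and 56.8 ± 10.1 CPM (SD, n = 6). The pseudogene-annotated Rpl32l had 0.0683 to 1.45 CPM in Nf2 and 0.0852 to 3.47 CPM in DKO mice and the highest log2 fold change of all members (1.23, SE 0.82, edgeR adjusted p = 0.527). Rps3a2 had 1.62 ± 0.443 and 1.84 ± 0.229 CPM and Rps3a3 had 0.336 ± 0.0916 and 0.404 ± 0.180 CPM. Of the 4 untested members, Rpl10l and Rps12l1 had no read in any mouse, and Rpl6l had 3 to 27 reads per mouse.

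The 4 X-linked members bear on the comparison by sex, where 0 members passed, beside 0.0164% of all tested genes (3 genes). At an unadjusted p under 0.05 in edgeR there were 2 members, Rpl13a and Rpl29, beside 2.91% of all tested genes, and without mouse 702 Rpl29 alone, beside 2.64%. By label, Rpl10 had 347 ± 50.7 CPM in males and 363 ± 23.1 CPM in females (SD, n = 6 each), and 349 ± 56.1 CPM in males without mouse 702 (n = 5). Rps4x, whose human counterpart escapes X inactivation, had 328 ± 15.1 and 338 ± 26.5 CPM (327 ± 16.4 CPM in males without mouse 702). Rpl36a had 96.8 ± 24.8 and 104 ± 18.3 CPM (98.5 ± 27.2 CPM in males without mouse 702). Rpl39, an exit tunnel protein gene, had 77.7 ± 14.9 and 76.9 ± 6.10 CPM (79.5 ± 15.9 CPM in males without mouse 702). Each of these differences was smaller than its spread, with or without that mouse.

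No member passed the test of whether the genotype difference depended on labelled sex either, beside 0.0109% of all tested genes (2 genes). Rpl29 came closest, with an interaction of 1.22 on the log2 scale (SE 0.22, edgeR adjusted p = 0.323, unadjusted p = 0.000159), and it was the only member with an unadjusted p under 0.05 in that edgeR fit, beside 4.78% of all tested genes. Without mouse 914, the DKO male with the lowest Rpl29 of the 3, it passed with 1.40 (adjusted p = 0.018). Without mouse 702 it did not (1.20, adjusted p = 0.538). In both labelled sexes the Rpl29 values of Nf2 mice were alike, with 28.9 ± 0.837 CPM in males and 31.8 ± 2.77 CPM in females (SD, n = 3).

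Genes that act around the ribosome were read from lists written with earlier results known, and none of them passed. With all mice, translation factors with TOP mRNAs resembled the members in direction, since 17 of 21 had a log2 fold change below 0 (median -0.10). Without mouse 649 the shares of the sets were further apart, a difference that was not tested. Then 16 of 21 factors (76.2%, median -0.07) lay below 0, against 55.2% of the members (median -0.01) and 46.4% of all genes. The factors included Pabpc1, the poly(A) binding protein, with 273 ± 23.0 CPM in Nf2 and 242 ± 9.37 CPM in DKO mice (log2 fold change -0.19, edgeR adjusted p = 0.176). Eef1a1, the elongation factor that delivers aminoacyl-tRNA, had 2573 ± 181 and 2343 ± 216 CPM (-0.15, adjusted p = 0.398). Tpt1, a TOP mRNA of very high level, had -0.22 (adjusted p = 0.337).

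Genes that build ribosomes were split in direction. Among 35 assembly factors 16 were below 0 and 19 above (median 0.01), with Eif6, which keeps the subunits apart, at -0.19 and Mdn1, the AAA ATPase of 60S maturation, at 0.25. Of 19 RNA polymerase I genes, 11 were above 0 (median 0.01), with Polr1b at 0.22 (edgeR adjusted p = 0.186). The 12 snoRNA host genes, whose transcripts also begin with a TOP tract, had a median of 0.06. Of 22 genes of mTOR, S6 kinase and MYC control, the lowest adjusted p was that of Eif4ebp1, the translation repressor that mTOR releases, with 12.8 ± 1.16 CPM in Nf2 and 9.71 ± 1.05 CPM in DKO mice (log2 fold change -0.41, SE 0.09, edgeR adjusted p = 0.0552).

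Mitochondrial ribosomal protein genes, which serve the separate ribosome inside mitochondria, also lay mostly below 0 with all mice. Of 78 genes, 65 had a log2 fold change below 0, against 49.0% of all tested genes, and the median was -0.08. Without mouse 649, 40 of 78 lay below 0, against 46.4% of all genes, and the median was -0.01. None passed, and the lowest adjusted p was that of Mrpl9 (-0.25, SE 0.08, edgeR adjusted p = 0.154).

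Cell type markers gave the setting in which these levels were read. Of 14 macrophage genes, C1qb fell (37.0 ± 6.40 CPM in Nf2 and 22.9 ± 2.86 CPM in DKO mice, edgeR adjusted p = 0.0138), 12 were below 0, and their summed level was 302 to 448 CPM in Nf2 and 280.0 to 403 CPM in DKO mice. The 12 Schwann cell genes were evenly split in direction, with sums of 9815 to 12814 CPM and 9243 to 13100.3 CPM, and 8 erythroid genes summed to 90.4 to 627 CPM and 119 to 849.5 CPM. B and plasma cell genes (10 genes) had a median log2 fold change of 0.77, with sums of 114 to 177 CPM and 126 to 207 CPM. The 6 satellite glia genes, of which Apoe is the most abundant, summed to 4984 ± 690.0 CPM in Nf2 and 3926 ± 539 CPM in DKO mice (SD, n = 6), with 3 below 0 and none passing. Of 8 endothelial genes 7 were above 0 and none passed, with sums of 130.0 to 156 CPM and 149 to 198 CPM. The 6 fibroblast genes, with 3 below 0 and none passing, summed to 1786 to 2249 CPM and 1349 to 2270 CPM. No gene of these lists was without reads, and the part of cell composition in the member levels was not tested.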

How the data were processed

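RNA was extracted, poly(A)-selected, converted into NEBNext Ultra II libraries and sequenced by a commercial provider. Per the labels, the submitters' processing notes name Trimmomatic 0.36, STAR 2.5.2b, featureCounts, Subread 1.5.2 and GRCm38. The authors deposited raw read counts per Ensembl gene without normalization. Treatment of strand and of multiply matching reads is not given in the sources used here. Members, lists, tests and the rule for naming genes were chosen with earlier results of these data known. The rule named members past a threshold or without overlap, extremes of fold change (5 each way), of level per kilobase and of variation (3 each way), the stalk, fusion, paralogue and X-linked members, and up to 4 genes per list.

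Genes passing filterByExpr were scaled by TMM and tested in R 4.3.3 with edgeR 4.0.16 (quasi-likelihood F test, Benjamini-Hochberg over all 18295 genes, threshold 0.05). Sex models included genotype. DESeq2 1.42.0, limma 3.58.1, other scalings, filters and subsets were alternatives, and summing with every matching pseudogene and males without mouse 702 were added after seeing the data. Pseudogenes were found with blastn 2.17.0. Coordinates came from GENCODE M21 and promoters from RefSeq (GRCm38.p6). The procedure was tested on simulated data. Mice are separate animals, so p-values measure the spread between mice. Total counts limit the precision of members with few reads. Tables were made in Python 3.11.15.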

Additional observations from a re-analysis of the deposited data

Results flagged for a closer look

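Among 60 groups of 6 mice examined for a single mouse far from the rest, 8 held such a value. About 3 would by chance if the groups were independent, but core members moved largely as a block. Rps4l and Rpl39l were also named for their high variation, so 8 and 3 cannot be compared. In DKO mice, Rps4l reached 55.1 CPM in mouse 885 (next mouse 12.0 CPM) and Rpl39l reached 1.90 CPM in the same mouse (next 0.0852 CPM). Rps2 was high in DKO mouse 887 with 81.1 CPM (next 63.0 CPM), and Rpl7l1 was low in that mouse with 50.4 CPM (next 57.6 CPM). In Nf2 mouse 649, which had the highest share of ribosomal protein counts, Rplp2 (143 CPM), Rpl36al (80.6 CPM) and Rpl39l (0.170 CPM, from 4 reads) stood above the rest. Rplp0 was high in Nf2 mouse 918 with 483 CPM (next 426 CPM).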

How the results depend on the processing

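The count of members called by genotype was 1 in most alternatives. It was 2 of 87 with DESeq2 (adding Rps2), beside 831 of 18295 genes. Without a count filter it was 2 of 89 (adding Rps2), beside 173 of 35643 genes. In females alone it was 2 of 87 (adding Rpl3l), beside 57 of 18487 genes. In males alone it was 0 of 87, where Rpl3 had 0.67, beside 2 of 18415 genes. Males without mouse 702, chosen after seeing the data, called Rps2 (-1.84) but not Rpl3 (0.64). Leaving out each mouse gave 1 to 2 members, and 0 to 1 for the interaction. Rpl29 turned to -0.26 in females alone. Rpl3 kept its direction throughout. Among all 18295 tested genes, 172 were called in the main fit, 521 with limma voom and 29 relative to member counts. Males without mouse 702 gave 9 of 18901 genes, and leaving out 1 mouse gave 81 to 217 of 18426 to 18513 genes. The cause was not tested. No paired analysis was possible because the genotypes share no mouse numbers.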
